A study of Glycine max with 8 samples.

Results

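Runs of neighbouring soybean genes were collected whose transcript levels differed in one direction between nodules of plants inoculated with Bra.Q2 alone (R) and of plants that received both Bac.B and Bra.Q2 (BR), as the labels name the inoculants. All plants were kept at low nitrogen, and each group held 4 libraries, numbered BR1 to BR4 or R1 to R4. The labels used here give no cultivar or plant age. Counts were scaled to a common library total, as CPM, and genes of chromosomes 1 to 20 with a mean of at least 1 CPM were put in the order of their identifiers, which leaves 27818 expressed genes. The log2 ratio of a gene is that of its mean CPM plus 0.5 in BR over its mean CPM plus 0.5 in R. A run was kept wherever 3 or more consecutive expressed genes of a chromosome all had a ratio of at least 1, or all of at most -1. This gave 29 runs with 89 member genes, of the 43517 genes in the count table. In 19 runs with 57 members levels were higher in BR, and in 10 runs with 32 members they were lower in BR. The members were thus chosen by the BR and R means over all 8 libraries, so the sizes and directions below are a description and carry no test. Whether libraries of one group stem from different plants is not stated in the labels, and the spread and p-values between them may then reflect technical variation only.

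Nodules are the root organs in which legumes house nitrogen-fixing rhizobia and supply them with carbon in exchange for ammonium. Soybean (Glycine max) is an ancient polyploid, and many of its gene families also hold copies made by tandem duplication, which lie side by side on a chromosome. Adjacent plant genes can therefore be copies of one another, unrelated genes that happen to lie together or, in some pathways, different enzymes encoded in a cluster. The identifiers used by the study (Wm82.a2.v1, a suffix left out below) carry the chromosome number before the letter G and, after it, a serial number giving the order along that chromosome. Gene names, functions and sequences of the members were not used here, since the reference gene table holds none of these identifiers, so each member is given by its identifier, its length and its levels. For the same reason the labelled tissue was not checked against genes known from nodules. In whole nodules, fewer cells of a type and less RNA per cell cannot be told apart.

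Library totals lay between 14223489 and 17287964 counts, so that 1 CPM stood for 14.22 to 17.29 counts. With the libraries scaled by their totals, the median log2 ratio of all expressed genes was 0.15 rather than 0, and with TMM factors, which correct for the make-up of the libraries, it was -0.03. The cut-offs of 1 and -1 are therefore not equally far from the bulk of genes, and the balance of higher and lower runs depends on the scaling. With TMM factors the same rule gave 2 higher and 20 lower runs. All 32 lower members and 35 of the 57 higher members still had a ratio of at least 1 in size under TMM. All 10 lower runs were found whole, and of the higher runs the 2 that were found whole begin with Glyma.04G084800 and Glyma.13G228900. The R libraries also differed among themselves, with R3 and R4 both above R1 and R2 in 34.7% of expressed genes and both below in 28.6%. Without R3 and R4, 8 of the 29 runs were found whole, 7 higher and 1 lower, and without R1 and R2, 20 were found whole, 13 higher and 7 lower.

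Over all expressed genes 6.84% had a ratio of at least 1 and 3.70% a ratio of at most -1. Of the 1903 higher genes, 1552 stood alone, 147 stretches held 2 genes and 19 held 3. Of the 1030 lower genes, 870 stood alone, 64 stretches held 2 genes, 9 held 3 and 1 held 5. The higher members had a median log2 ratio of 1.24, from 1.00 to 2.29, and 5 of them reached 2. The lower members had a median of -1.61, from -2.84 to -1.07, and 4 of them reached -2. Members close to the cut-off were more frequent among the higher ones, where 13 of 57 had a ratio below 1.1, than among the lower ones, where 2 of 32 lay above -1.1. The member nearest to the cut-off was Glyma.10G036700 at 1.00, and the nearest gene left outside, beside a higher run, had a ratio of 0.99. Beside the lower runs the nearest gene outside had -0.82.

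**Figure D1:**
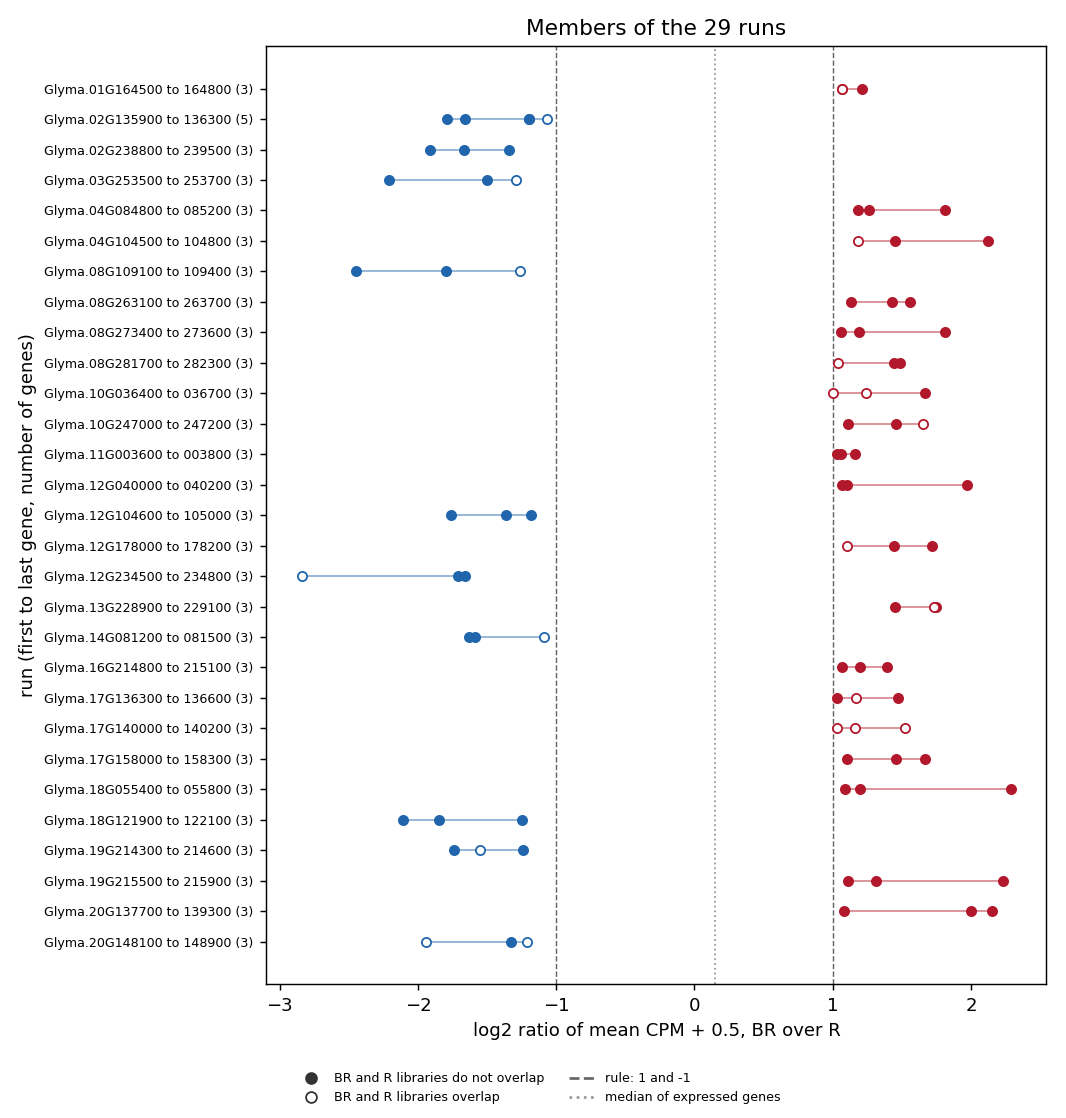
Log2 ratio of mean CPM plus 0.5, BR over R, for each of the 89 members (points), by run from chromosome 1 to chromosome 20; filled points are members whose BR and R libraries do not overlap. Lower runs spread down to -2.84 and higher runs up to 2.29, and many higher runs start close to the dashed line of the rule at 1; the dotted line is the median of expressed genes at 0.15.

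All 4 BR libraries lay above all 4 R libraries in 45 of the 57 higher members, beside 19.4% of all expressed genes, and below them in 24 of the 32 lower members, beside 7.17%. The edgeR quasi-likelihood test on the whole table, at a Benjamini-Hochberg adjusted p below 0.05, called 40 of the 57 higher members, beside 7.98% of the 29508 genes tested called higher. It called 27 of the 32 lower members, of which 30 were tested, beside 10.3% called lower. The rule used the same comparison, so these counts say only which members stood clear of the spread between libraries at the scaling of the test. That scaling was TMM, whereas the rule used library totals. With library totals alone the test called 48 higher and 24 lower members. In either direction it then called 20.44% of all genes tested. That share was not split by direction, so each count has no share of its own beside it. In 13 runs, 10 higher and 3 lower, no member had overlapping groups. Summed over its members, a run separated the groups in 17 of 19 higher and 9 of 10 lower cases. The 3 exceptions were the runs that begin with Glyma.12G178000, Glyma.17G140000 and Glyma.03G253500.

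The longest run comprised 5 genes with consecutive serial numbers on chromosome 2, from Glyma.02G135900 to Glyma.02G136300, all lower in BR. Glyma.02G135900 had 3.37, 3.07, 3.68 and 4.33 CPM in BR1 to BR4 and 4.19, 6, 12.5 and 9.81 CPM in R1 to R4. The R1 library lay within the range of BR, so that the groups overlapped, and the log2 ratio was -1.07. Glyma.02G136000 had 6.54, 4.8, 6.27 and 6.98 CPM in BR1 to BR4 and 7.6, 9.1, 27.9 and 14.4 CPM in R1 to R4. Its groups met between BR4 and R1 without overlapping, and its ratio was -1.20. Glyma.02G136100 had 4.1, 2.83, 4.16 and 4.69 CPM in BR1 to BR4 and 7.79, 11.1, 24.1 and 11.1 CPM in R1 to R4, with all R libraries above all BR libraries and a ratio of -1.66. For Glyma.02G136200 the values were 6.87, 7.69, 8.86 and 9.68 CPM in BR1 to BR4 and 14.5, 16.8, 24.3 and 22.8 CPM in R1 to R4, again without overlap, and the ratio was -1.20. The most abundant of the 5, Glyma.02G136300, had 15.3, 18.2, 20.3 and 16.8 CPM in BR1 to BR4 and 36.4, 45.5, 106 and 61.7 CPM in R1 to R4. Its lowest R library was well above its highest BR library, and its ratio of -1.79 was the largest of the run in size.

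In each of the 5 genes the R3 library was the highest of the 8. Summed over the run, R3 held 195 CPM, R4 119.9 CPM, R2 88.5 CPM and R1 70.6 CPM, whereas BR1 to BR4 held 36.2, 36.6, 43.2 and 42.5 CPM. Without R3 and R4 the ratios of Glyma.02G135900, Glyma.02G136000 and Glyma.02G136200 were -0.45, -0.41 and -0.88, inside the cut-off, and that of Glyma.02G136300 was -1.19. Within the groups the adjacent members deviated closely together, with Pearson correlations over the 8 libraries from 0.73 to 0.94. Per gene length, in the authors' FPKM values, the 5 genes differed, from 1.96 FPKM in BR and 4.41 FPKM in R for Glyma.02G135900 to 10.2 and 36.1 FPKM for Glyma.02G136300. Among them, Glyma.02G136000, Glyma.02G136200 and Glyma.02G136300 had almost equal lengths of 1707, 1705 and 1730 bases. The expressed gene before the run, Glyma.02G135400, had a ratio of 1.07 and so pointed the other way.

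A second run on chromosome 2, Glyma.02G238800, Glyma.02G239100 and Glyma.02G239500, held the most transcripts of the lower runs. Glyma.02G238800 had 80.02, 107, 119 and 106 CPM in BR1 to BR4 and 182, 141, 323 and 406 CPM in R1 to R4, and its ratio was -1.34. Glyma.02G239100 had 1.19, 1.5, 4.28 and 3.67 CPM in BR1 to BR4 and 8.06, 5.26, 12.8 and 12.1 CPM in R1 to R4, with a ratio of -1.67. Glyma.02G239500 had 11.2, 33.3, 30.1 and 23.2 CPM in BR1 to BR4 and 72.1, 70.9, 147 and 83.1 CPM in R1 to R4, with a ratio of -1.91. In all 3 genes every R library was above every BR library, and the run was found whole without any single library. R3 and R4 were the highest libraries of all 3 genes. Without both of them the ratio of Glyma.02G238800 was -0.64.

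On chromosome 3, R3 and R4 were also the high libraries of the consecutive genes Glyma.03G253500, Glyma.03G253600 and Glyma.03G253700, at lower levels. Glyma.03G253500 had 2.11, 0.983, 2.47 and 2.77 CPM in BR1 to BR4 and 1.77, 1.08, 14.9 and 5.45 CPM in R1 to R4. Its R1 and R2 libraries were among the BR values, and without R3 and R4 its ratio of -1.29 turned to 0.43, while that of Glyma.03G253700 became -0.82. The middle gene, Glyma.03G253600, had 0.529, 0.405, 0.482 and 0.241 CPM in BR1 to BR4 and 2.1, 1.01, 5.76 and 6 CPM in R1 to R4, with every R library above BR and a ratio of -2.21. It rested on few reads in BR, with counts of 8, 7, 8 and 4. Glyma.03G253700 had 0.397, 0.868, 0.844 and 1.62 CPM in BR1 to BR4 and 1.9, 2.16, 4.64 and 5.52 CPM in R1 to R4 and a ratio of -1.5, also without overlap. Summed over the run, R2 at 4.25 CPM lay below BR4 at 4.63 CPM. The next expressed gene, Glyma.03G253800, with no row of the table between, had a ratio of 1.78.

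The lower run on chromosome 12 formed by Glyma.12G234500, Glyma.12G234700 and Glyma.12G234800 had the largest ratio of all members, and that value rested on 1 library. Glyma.12G234500 had counts of 0, 9, 3 and 6 in BR1 to BR4, against 6, 17, 248 and 14 in R1 to R4. R3 alone was high, the other R libraries lay among or near the BR values, and the ratio of -2.84 became -0.8 without R3. This gene did not pass the filter of the edgeR test. The other members did not depend on R3 in this way. Glyma.12G234700 had 0.859, 0.868, 0.965 and 0.842 CPM in BR1 to BR4 and 3.01, 2.36, 7.17 and 2.93 CPM in R1 to R4, with a ratio of -1.66. Glyma.12G234800 had 0.529, 2.31, 1.33 and 1.2 CPM in BR1 to BR4 and 5.31, 5.73, 6.82 and 4.29 CPM in R1 to R4, with a ratio of -1.71, and in both genes all R libraries were above all BR libraries. Without R3 and R4 their ratios were -1.20 and -1.71.

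**Figure D2:**
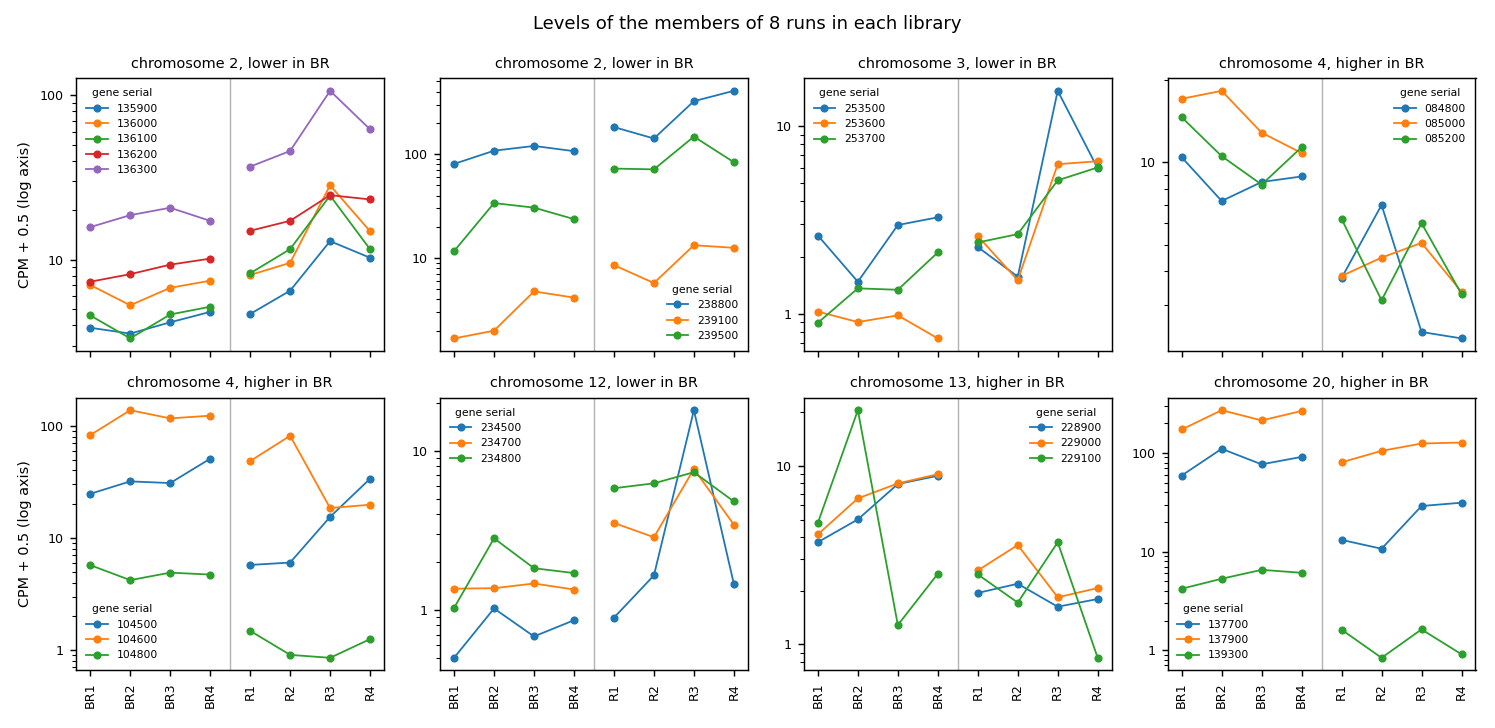
CPM plus 0.5 (log axis) in each library for the members of the 8 runs described gene by gene, BR1 to BR4 left and R1 to R4 right of the grey line in each panel; colours mark the genes by serial number. In the lower runs R3 is often the highest library (195 CPM summed over the chromosome 2 run of 5), and in the chromosome 13 run one gene is high in BR2 only (20.01 CPM).

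The other 6 lower runs are given by their summed levels (mean ± SD, n = 4). Glyma.08G109100, Glyma.08G109300 and Glyma.08G109400 together had 85.9 ± 28.2 CPM in BR and 287 ± 173 CPM in R. Their ratios lay from -2.45 to -1.26, that of Glyma.08G109300 being the largest, with 1.25, 4.51, 4.88 and 7.16 CPM in BR1 to BR4 and 17.4, 17.8, 23.1 and 47.8 CPM in R1 to R4. The first gene overlapped between groups, and R4 held 515.6 CPM of the run against 130.5 to 322 CPM in R1 to R3. Glyma.12G104600, Glyma.12G104800 and Glyma.12G105000 had 18.6 ± 3.49 CPM in BR and 51.4 ± 9.17 CPM in R, with ratios from -1.76 to -1.18. This run was even across the R libraries, at 44.7 to 64.4 CPM, and was found whole without any single library. BR1 was low in Glyma.12G105000, at 0.132 CPM or 2 counts.

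Glyma.14G081200, Glyma.14G081300 and Glyma.14G081500 had 19.1 ± 5.68 CPM in BR and 60.3 ± 16.6 CPM in R, with ratios from -1.63 to -1.09. The middle gene overlapped between groups. Glyma.18G121900, Glyma.18G122000 and Glyma.18G122100 had 62.4 ± 20.5 CPM in BR and 176 ± 62 CPM in R, with ratios from -2.11 to -1.25 and no overlap in any of the 3 genes. BR2 stood high in this run, at 92.95 CPM against 49.4 to 54.1 CPM in the other BR libraries. Glyma.19G214300, Glyma.19G214500 and Glyma.19G214600 had 16.4 ± 6.99 CPM in BR and 43.3 ± 6.84 CPM in R, with ratios from -1.74 to -1.24. In Glyma.19G214300 the R4 library had 5 counts, fewer than any BR library, so that its ratio of -1.55 rested on R1 to R3. Glyma.20G148100, Glyma.20G148600 and Glyma.20G148900 had 7.8 ± 1.31 CPM in BR and 21.5 ± 11.8 CPM in R, with ratios from -1.94 to -1.21. Both outer genes overlapped between groups, and Glyma.20G148100 was too sparse for the edgeR test.

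Among the higher runs, Glyma.04G084800, Glyma.04G085000 and Glyma.04G085200 on chromosome 4 were found whole under TMM and when any single library other than R4 was left out. Glyma.04G084800 had 9.91, 6.71, 7.96 and 8.36 CPM in BR1 to BR4 and 3.27, 6.47, 1.9 and 1.77 CPM in R1 to R4, with R2 just below the lowest BR library and a ratio of 1.18. Glyma.04G085000 had 16.5, 17.7, 12.3 and 10.3 CPM in BR1 to BR4 and 3.34, 3.98, 4.57 and 2.86 CPM in R1 to R4, with a ratio of 1.81. Glyma.04G085200 had 14.1, 10.01, 7.78 and 10.8 CPM in BR1 to BR4 and 5.7, 2.63, 5.48 and 2.79 CPM in R1 to R4, with a ratio of 1.26. None of the 3 genes overlapped between groups. Glyma.04G084800 was not called by edgeR, unlike the other genes of the run. Its ratio was 1.0 under TMM, at the cut-off, and 0.7 without R3 and R4, inside it.

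A second run on chromosome 4 comprised Glyma.04G104500, Glyma.04G104600 and Glyma.04G104800. Glyma.04G104500 had 24.2, 31.5, 30.4 and 50.4 CPM in BR1 to BR4 and 5.24, 5.53, 14.9 and 33.2 CPM in R1 to R4. R4 lay within the BR range, whereas R1 and R2 were far below it, and the ratio was 1.18. Glyma.04G104600 had 82.3, 138, 116 and 123 CPM in BR1 to BR4 and 48, 81.1, 18 and 19.3 CPM in R1 to R4, with a ratio of 1.45. Here R3 and R4 were the low libraries and R2 approached BR1. Glyma.04G104800 had 5.22, 3.7, 4.4 and 4.21 CPM in BR1 to BR4 and 0.983, 0.405, 0.351 and 0.75 CPM in R1 to R4, with all R libraries below 1 CPM and a ratio of 2.12. The first pair of neighbours thus moved in opposite ways within R, and their deviations from the group means correlated at -0.72 over the 8 libraries.

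On chromosome 13, the consecutive genes Glyma.13G228900, Glyma.13G229000 and Glyma.13G229100 had the largest smallest ratio of the higher runs, 1.45. Glyma.13G228900 had 3.24, 4.51, 7.42 and 8.3 CPM in BR1 to BR4 and 1.44, 1.69, 1.12 and 1.29 CPM in R1 to R4, with a ratio of 1.75. Glyma.13G229000 had 3.63, 6.07, 7.48 and 8.48 CPM in BR1 to BR4 and 2.1, 3.1, 1.34 and 1.57 CPM in R1 to R4, with a ratio of 1.45, and neither gene overlapped between groups. Glyma.13G229100 had 4.29, 20.01, 0.784 and 1.99 CPM in BR1 to BR4 and 1.97, 1.21, 3.23 and 0.341 CPM in R1 to R4. Its BR2 library alone was high, BR3 lay below 3 of the R libraries, and its ratio of 1.73 became 0.38 without BR2.

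The most abundant higher run was that of Glyma.20G137700, Glyma.20G137900 and Glyma.20G139300 on chromosome 20. Glyma.20G137700 had 58.5, 109.6, 76.1 and 90.7 CPM in BR1 to BR4 and 12.6, 10.2, 28.5 and 30.8 CPM in R1 to R4, with a ratio of 2.00. Glyma.20G137900 had 172, 271, 213 and 266 CPM in BR1 to BR4 and 79.9, 104, 124 and 127 CPM in R1 to R4, with a ratio of 1.08. Glyma.20G139300 had 3.7, 4.8, 6.03 and 5.59 CPM in BR1 to BR4 and 1.11, 0.337, 1.12 and 0.409 CPM in R1 to R4, with a ratio of 2.15. In all 3 genes every BR library was above every R library. The last 2 genes are neighbours only among expressed genes: 9 genes below 1 CPM lie between them in the table. The levels also spanned the widest range of any run, with mean FPKM differing 62.2-fold between Glyma.20G137900 and Glyma.20G139300.

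The remaining 15 higher runs lay on 9 chromosomes and are again given by summed CPM (mean ± SD, n = 4). On chromosome 1, Glyma.01G164500, Glyma.01G164600 and Glyma.01G164800 had 31.4 ± 7.54 CPM in BR and 13.3 ± 3.81 CPM in R, with ratios from 1.07 to 1.21. Chromosome 8 held 3 higher runs. In Glyma.08G263100, Glyma.08G263500 and Glyma.08G263700 the sums were 14.9 ± 0.958 CPM in BR and 4.94 ± 0.307 CPM in R. Ratios ran from 1.13 to 1.56, with no overlap in any gene. The sums of the R libraries differed by less than 1 CPM, but the members did not vary together. Deviations of adjacent members from the group means correlated at 0.08 and -0.33. For Glyma.08G273400, Glyma.08G273500 and Glyma.08G273600 the sums were 32.7 ± 7.56 CPM in BR and 12.3 ± 4.07 CPM in R, with ratios from 1.06 to 1.81. Glyma.08G281700, Glyma.08G281800 and Glyma.08G282300 were the sparsest run, with 7.98 ± 1.85 CPM in BR and 2.19 ± 0.399 CPM in R and ratios from 1.04 to 1.49. On chromosome 10, Glyma.10G036400, Glyma.10G036600 and Glyma.10G036700 had 19.5 ± 3.8 CPM in BR and 7.42 ± 5.59 CPM in R, with ratios from 1.00 to 1.67. The sum was 3.21 and 2.16 CPM in R1 and R2 but 13.4 and 10.9 CPM in R3 and R4, against 14.2 to 23.2 CPM in BR, and edgeR called none of the 3 genes.

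The opposite order within R appeared in Glyma.10G247000, Glyma.10G247100 and Glyma.10G247200, with 28.2 ± 5.09 CPM in BR and 9.18 ± 6.89 CPM in R and ratios from 1.11 to 1.65. There R2 held 18.3 CPM and R4 3.41 CPM, and the groups overlapped in the third gene. Glyma.11G003600, Glyma.11G003700 and Glyma.11G003800 had 27.2 ± 4.86 CPM in BR and 12.2 ± 2.4 CPM in R, with ratios from 1.03 to 1.16 and no overlap in any gene. Glyma.12G040000, Glyma.12G040100 and Glyma.12G040200 had 98.3 ± 26.1 CPM in BR and 33.9 ± 2.21 CPM in R. The ratio of the third gene was 1.97, and its levels were 89.3, 30.1, 47.1 and 49.9 CPM in BR1 to BR4 and 13.2, 13.9, 13.4 and 13.2 CPM in R1 to R4, nearly constant in R and high in BR1. Glyma.12G178000, Glyma.12G178100 and Glyma.12G178200 had 12.6 ± 4.8 CPM in BR and 3.95 ± 1.94 CPM in R, with ratios from 1.1 to 1.72. BR1 was low in this run, at 5.42 CPM against 14.9 to 15.2 CPM in BR2 to BR4, and was below R2 at 6.74 CPM. Glyma.16G214800, Glyma.16G214900 and Glyma.16G215100 had 37 ± 6.18 CPM in BR and 14.6 ± 4.52 CPM in R, with ratios from 1.07 to 1.39 and no overlap in any gene.

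Chromosome 17 also held 3 higher runs. Glyma.17G136300, Glyma.17G136500 and Glyma.17G136600 had 52.9 ± 8.36 CPM in BR and 20.3 ± 2.39 CPM in R, with ratios from 1.03 to 1.47. Of these, Glyma.17G136600 was sparse, with counts of 25, 75, 25 and 7 in BR1 to BR4, against 3, 2, 21 and 9 in R1 to R4. Glyma.17G140000, Glyma.17G140100 and Glyma.17G140200 had 122 ± 26.9 CPM in BR and 56.9 ± 27.9 CPM in R, with ratios from 1.03 to 1.52. All 3 genes overlapped between groups and none was called by edgeR. Summed over the run, R2 at 95.2 CPM lay above BR1 at 90.4 CPM. Glyma.17G158000, Glyma.17G158200 and Glyma.17G158300 had 10.8 ± 2.79 CPM in BR and 3.11 ± 0.591 CPM in R, with ratios from 1.1 to 1.67 and no overlap in any gene. On chromosome 18, Glyma.18G055400, Glyma.18G055500 and Glyma.18G055800 had 72.4 ± 25.4 CPM in BR and 26.1 ± 7.76 CPM in R. The first had the largest ratio of the higher members, 2.29, with 9.05, 20.01, 24.5 and 25.1 CPM in BR1 to BR4 and 5.24, 5.87, 2.67 and 0.75 CPM in R1 to R4. The chromosome 19 run of Glyma.19G215500, Glyma.19G215700 and Glyma.19G215900 had 40.2 ± 9.1 CPM in BR and 10.6 ± 4.49 CPM in R, with ratios from 1.11 to 2.23 and no overlap in any gene.

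**Figure D3:**
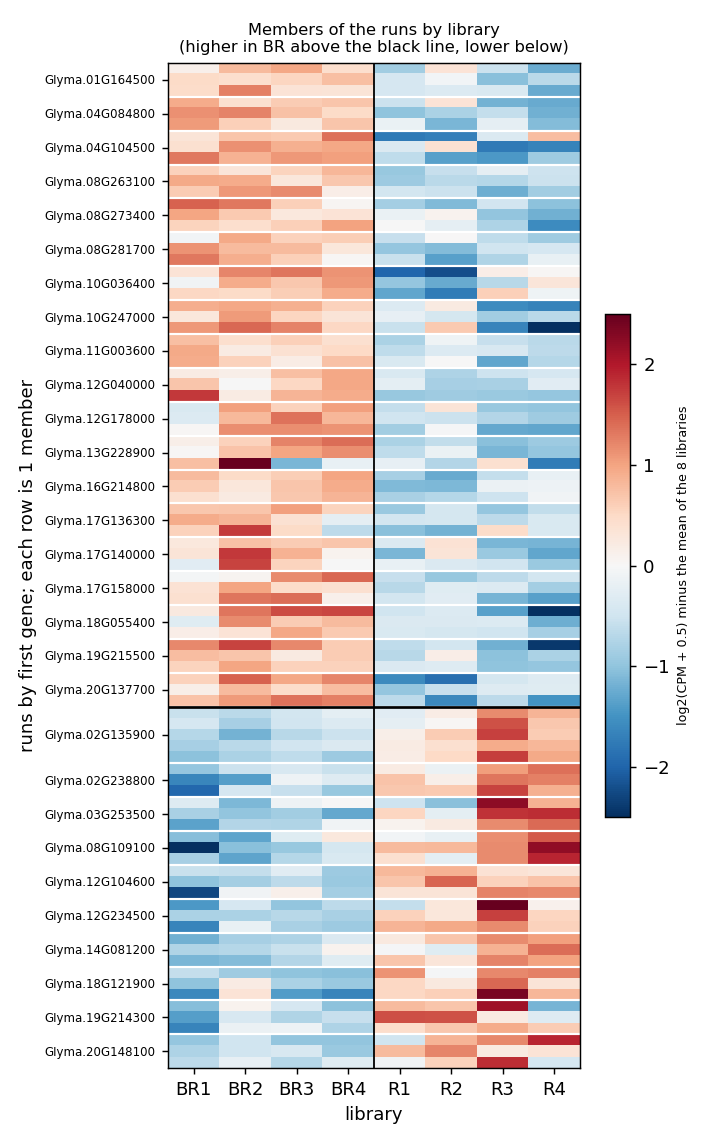
Each row is a member and each column a library; colour gives log2(CPM + 0.5) minus the mean of the 8 libraries, with the 57 higher members above the black line and the 32 lower members below it. Rows of a run often share the same uneven pattern across R1 to R4, as in the chromosome 2 run of 5, where R3 is the highest library in each gene.

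The libraries did not contribute evenly to the runs. Summed over a run, R3 was the highest R library in 7 of the 10 lower runs and R2 the lowest in 5, whereas R2 was the highest R library in 14 of the 19 higher runs and R4 the lowest in 11. In 20 of 32 lower members (62.5%) R3 and R4 were both above R1 and R2, beside 55.15% of all 1030 genes with a ratio of at most -1 and 34.7% of all expressed genes. In 24 of 57 higher members (42.1%) R3 and R4 were both below R1 and R2, beside 47% of all 1903 genes with a ratio of at least 1 and 28.6% of all expressed genes. Within BR, BR1 was the lowest library of 9 among the 19 higher runs and of 6 among the 10 lower runs.

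To place each library by members it had no part in choosing, the rule was applied to the other 7 libraries and the library left out was compared with both groups on the log2(CPM + 0.5) scale. It was nearer to the mean of its own group than to that of the other group in 77.9% to 94.8% of 69 to 96 such members for every library except R2. R2 was nearer to R in 106 of 188 members, or 56.4%. By direction, R2 was nearer to R in 75 of 141 higher members and in 31 of 47 lower members. R3 was nearer to R in all 18 lower members found without it, and in 42 of 51 higher members. The same shares were not computed for genes past the cut-off outside runs. They therefore do not show whether members of runs differ from such genes. The number of runs moved with the library left out, from 23 without R3 to 60 without R2. Of the 29 runs, 3 were found whole without every single library in turn, those that begin with Glyma.02G238800, Glyma.08G263100 and Glyma.12G104600.

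The deviations of single libraries from their group means do not enter the ratio directly, although a library that is high in several neighbours raises all their means. Such neighbours can pass the cut-off together, so the rule itself can raise the correlation of members above that of unselected pairs. How much of the difference below comes from this was not tested. Over the 60 pairs of adjacent members, the Pearson correlation of these deviations over the 8 libraries had a median of 0.57, with quartiles of 0.23 and 0.75, and 37 pairs were above 0.5. Pairs of members with the same direction but from runs on different chromosomes had a median of 0.10 over 1893 pairs, and all 27798 pairs of adjacent expressed genes had a median of 0.07. The 211 stretches of 2 genes had a median of 0.25. Among the lower members the adjacent pairs had a median of 0.67 and those from different chromosomes 0.36, and among the higher members these were 0.54 and 0.03. All genes of a library share its depth and make-up. With TMM factors the median was 0.56 for the adjacent members and 0.06 for all adjacent expressed genes. Leaving out single libraries gave medians of 0.53 to 0.62 for the adjacent members, which does not remove what genes share in the libraries that remain. Reads counted for overlapping genes or near-identical copies would also tie neighbours together, and their part was not tested.

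**Figure D4:**
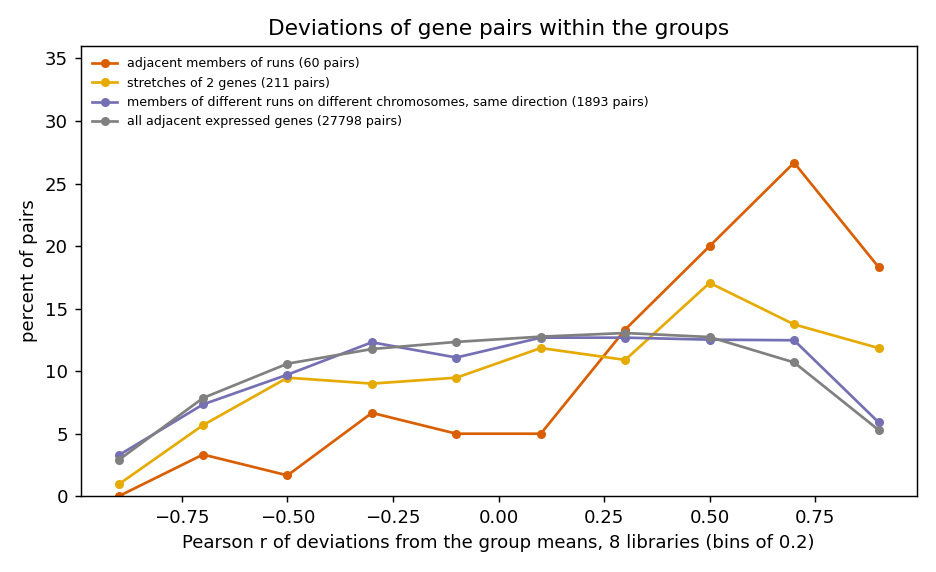
Percent of gene pairs (vertical axis) by Pearson correlation of their deviations from the group means over 8 libraries (bins of 0.2), for adjacent members, stretches of 2 genes, members of different chromosomes and all adjacent expressed genes. The adjacent members are shifted to the right, with a median of 0.57 against 0.07 for all adjacent genes, which were not chosen by the rule.

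In 12 runs every adjacent pair was above 0.5. The tightest were the run that begins with Glyma.16G214800, with correlations of 0.83 and 0.86, the chromosome 2 run of 5, and Glyma.14G081200 to Glyma.14G081500, with 0.76 and 0.83. In 8 of the 29 runs at least 1 pair was at or below 0. In Glyma.20G148100 to Glyma.20G148900 both pairs were negative, at -0.36 and -0.23, and in Glyma.04G104500 to Glyma.04G104800 they were -0.72 and -0.09.

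Runs lay on 15 of the 20 chromosomes, with higher runs on 12 and lower runs on 8. Chromosomes 8 and 12 held 4 each, chromosome 17 held 3, and chromosomes 5, 6, 7, 9 and 15 held none. In 13 runs, 9 higher and 4 lower, no other gene of the table lay between the members. Of the 60 adjacent pairs, 41 (68.3%) had no table row between them, close to the 67.2% of all adjacent expressed pairs, and 13 had 1. The closest runs of one direction on a chromosome were Glyma.08G273400 to Glyma.08G273600 and Glyma.08G281700 to Glyma.08G282300, with 14 expressed genes between them, and Glyma.17G136300 to Glyma.17G136600 and Glyma.17G140000 to Glyma.17G140200, with 15. A lower and a higher run on chromosome 19, ending with Glyma.19G214600 and beginning with Glyma.19G215500, were 6 expressed genes apart.

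The 38 expressed genes directly beside the higher runs had a median log2 ratio of 0.23, beside 0.11 for all expressed genes with a ratio below 1, and 25 of them (65.8%) had the sign of the run, beside 59.8% of those genes. The 20 genes beside the lower runs had a median of 0.03, beside 0.18 for all expressed genes with a ratio above -1, and 8 of them (40%) had the sign of the run, beside 35.1%. Both shares by sign were near that background. Beside the higher runs 11 of the 38 genes were past 0.5 in the direction of the run, beside 19.37% of the same background. Beside the lower runs 5 of the 20 were, beside 7.604%. Whether these counts differ from the background was not tested. At 2 to 3 genes from the higher and lower runs the medians were 0.27 and 0.02, and at 4 to 10 genes 0.15 and 0.16. The edges are partly set by the rule, since a flanking gene past the cut-off would have joined its run. Genes farther out are not limited in this way, so their medians cannot be compared directly with those of the adjacent genes.

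**Figure D5:**
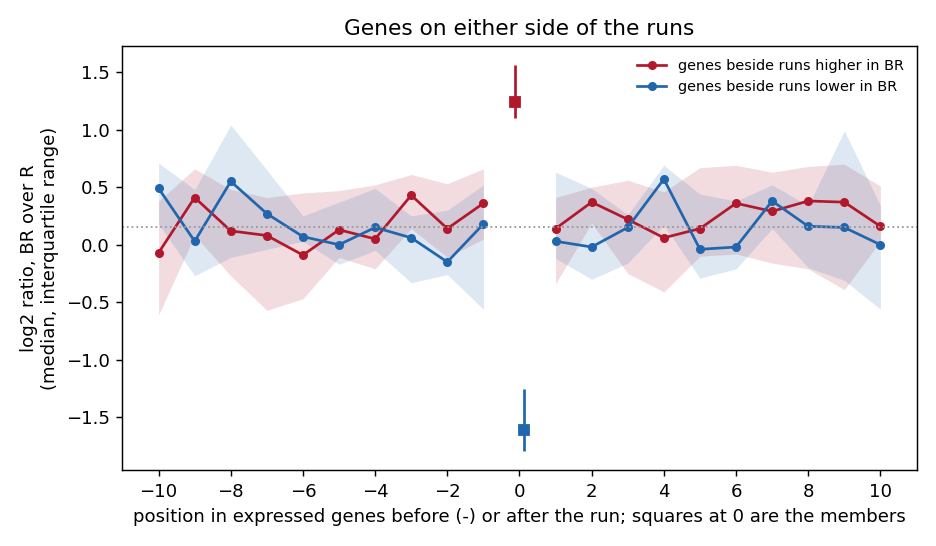
Median log2 ratio, BR over R, of expressed genes 1 to 10 places before and after the runs (points; bands are interquartile ranges) and of the members (squares with interquartile range). The flanking genes lie around the dotted line at 0.15, while the members lie at 1.24 and -1.61.

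By median CPM both kinds of members lay below all expressed genes, while per gene length only the higher members did. Per gene length, the median mean level was 3.69 FPKM in the higher members and 5.52 FPKM in the lower members, beside 5.11 FPKM for all expressed genes. In CPM the median was 4.56 in the higher members and 7.42 in the lower members, beside 10.25 for all expressed genes. Over all genes past the cut-off, in runs or not, the median was 6.09 CPM for the higher and 12.02 CPM for the lower genes. Of the 89 members, 42 had a mean below 5 CPM and 18 a mean of 20 or more. Together the higher members took 1133 ± 135 CPM in BR and 434 ± 53.7 CPM in R, and the lower members 386 ± 54.9 CPM in BR and 1151 ± 417 CPM in R (SD, n = 4). Members of a single run were often expressed at very different levels. The highest over the lowest mean FPKM of a run had a median of 6.31, from 1.32 in Glyma.19G215500 to Glyma.19G215900 to 62.2 in the chromosome 20 run.

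Tandem copies often share their length, which gives only a weak hint where sequences are not used. Gene lengths, from the ratio of counts to FPKM, ran from 346 to 4181 bases in the members, with a median of 1664 beside 1910 in all expressed genes. By direction the median was 1664 bases in the higher members, beside 1652 in all higher genes past the cut-off. In the lower members it was 1672, beside 1832 in all lower genes past the cut-off. In 9 of the 29 runs at least 1 pair of members differed in length by at most 5%. Of the 28 runs of 3 genes this held for 8, while it held for 17.2% of all sets of 3 consecutive expressed genes. In Glyma.14G081200, Glyma.14G081300 and Glyma.14G081500 the lengths were 1637, 1603 and 1638 bases, and the chromosome 2 run of 5 held the 3 genes of near-equal length given above. In Glyma.11G003600 and Glyma.11G003800 the lengths were 1105 and 1135 bases, and the mean FPKM of that run spanned 2.1-fold. Further pairs were Glyma.10G247000 and Glyma.10G247100 (2683 and 2580 bases), Glyma.12G104600 and Glyma.12G105000 (1144 and 1116), Glyma.13G228900 and Glyma.13G229100 (1943 and 1966), Glyma.18G055400 and Glyma.18G055500 (1329 and 1315), and Glyma.20G148100 and Glyma.20G148900 (1927 and 1971). In the most abundant higher run Glyma.20G137700, at 2376 bases, was within 5% of both Glyma.20G137900 at 2338 and Glyma.20G139300 at 2476 bases. In the other 20 runs all lengths differed by more than 5%. If some of these pairs are near-identical copies, the split of reads between them is uncertain.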

How the data were processed

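RNA-seq of soybean nodules was available as 8 libraries in 2 groups of 4, grouped by their labels. The deposited count table holds whole-number counts for 43517 genes, and the authors' second table holds FPKM for 39910 of them. The submitters' processing notes list, in no order, HTSeq 0.6.0, HISAT2 2.1.0, Bowtie2 2.2.3, TopHat2 and CASAVA, without their roles. Whether reads were counted by strand is not stated there, and overlapping genes cannot be told apart. CPM were computed from the counts and column totals of 14223489 to 17287964. Gene lengths were derived from counts and FPKM and were the same in every library within 0.1%. Of the identifiers, 266 on scaffolds were left out, and 0 matched the reference gene table. The rule was applied with a pseudocount of 0.5 CPM, a mean of at least 1 CPM, a log2 ratio of 1 and at least 3 genes. Differential calls came from edgeR 4.0.16 in R 4.3.3 (quasi-likelihood test with TMM and filterByExpr, called at an adjusted p below 0.05, Benjamini-Hochberg over 29508 genes). DESeq2 1.42.0, other scalings, pseudocounts, filters, group summaries, cut-offs, a replicate block and left-out libraries were alternatives. Correlations used log2(CPM + 0.5) minus the group mean and carry no p. The members, the rule and the runs described gene by gene (the run of 5 genes, and in each direction the 3 runs of 3 with the largest smallest ratio and the run with the highest summed CPM) were chosen with earlier results of these data known.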

Additional observations from a re-analysis of the deposited data

Results flagged for a closer look

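Among the 26 genes described one by one and the 29 runs, 110 groups of 4 libraries were examined for 1 library that stood apart, and in 8 of them its gap to the nearest other library exceeded Dixon's critical value. For normally distributed values chance alone would flag about 1 in 20 groups. The CPM values were not transformed, and the genes were chosen by means that a single high library can raise. That rate may therefore not hold for these groups. The groups are not independent, since sums of runs include genes that were also examined one by one. R3 was the far library in 4 of the 8. Glyma.02G239500 had 146.9 CPM in R3 and 70.87 to 83.14 CPM in the other R libraries. Glyma.12G234500 had 17.44 CPM in R3 and 0.393 to 1.146 CPM in the others, and Glyma.12G234700 had 7.171 CPM against 2.36 to 3.013 CPM. The sum of Glyma.12G234500 to Glyma.12G234800, which includes both of these genes, was 31.43 CPM in R3 and 8.177 to 9.238 CPM in the others. In Glyma.11G003600 to Glyma.11G003800, R2 held 15.78 CPM and the other R libraries 10.7 to 11.18 CPM.

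Within BR, BR2 was high in 2 runs. The sum of Glyma.01G164500 to Glyma.01G164800 was 42.69 CPM in BR2 against 26.96 to 28.58 CPM, and that of Glyma.18G121900 to Glyma.18G122100 was 92.95 CPM against 49.38 to 54.12 CPM. BR1 was low in Glyma.12G178000 to Glyma.12G178200, at 5.418 CPM against 14.92 to 15.19 CPM in the other BR libraries.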

How the results depend on the processing

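The number of runs depended on scaling, pseudocount, filter and single libraries, and 0 of the 29 runs were found whole under all 20 settings. Against 19 higher and 10 lower runs, TMM factors gave 2 and 20, and RLE factors 2 and 19. The higher runs numbered 35 with a pseudocount of 0.1 CPM, 8 with 1 CPM, 10 with no filter, 0 at a ratio of 1.5 and 9 with no table row allowed between members. The lower runs numbered 1 at a ratio of 1.5 and 4 with no table row between. Against 89 members, these settings gave 147 (0.1 CPM), 52 (1 CPM), 54 (no filter), 3 (ratio of 1.5) and 41 (no row between). Leaving out single libraries gave 14 to 45 higher runs, 6 to 15 lower runs and 69 to 188 members, the most without R2 and the fewest members without R3. In alternatives chosen after seeing the data, there were 3 lower runs without R3 and R4, and 91 higher runs and 337 members without R1 and R2. Without R3 and R4 the ratio of Glyma.03G253500 turned from -1.29 to 0.43. The edgeR test called 67 members, beside 18.3% of all genes tested, and 44 without R3 and R4, beside 11.51%. Without single libraries it called from 41 (without BR3, beside 9.55%) to 78 (without R2, beside 24.4%), so the share over all genes moved with the members. With the replicate number as a block it called 68, beside 15.7%. Same-numbered libraries did not deviate together (correlations of 0.07, 0.09, -0.08 and 0.09), and 3 of 8 libraries correlated best with their own number. DESeq2 called 78, beside 18.02%. The median correlation of adjacent members, 0.57, ranged from 0.53 to 0.62 without single libraries. Runs with members of like length numbered 9 at 5% and 11 at 10%. The cause of these changes was not tested. Protein identity was not run, since no protein sequences were used. Depth limits the sparse members, since 1 CPM stood for 14.22 to 17.29 counts.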

Other observations

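Of the expressed genes directly beside the runs (38 at higher and 20 at lower runs), 3 at each kind had a ratio past 1 in size against the direction of their run. Over all expressed genes 3.70% had a ratio of at most -1 and 6.84% a ratio of at least 1. With so few genes, whether the neighbours differ from these shares was not tested. The genes below were picked out after their values were seen. The largest was Glyma.11G003500, directly before the higher run Glyma.11G003600 to Glyma.11G003800 with no row of the table between. It had 0.463, 2.08, 1.27 and 1.74 CPM in BR1 to BR4 and 27.6, 34.7, 41.5 and 36.4 CPM in R1 to R4, which is 1.39 ± 0.703 CPM in BR and 35.1 ± 5.77 CPM in R (SD, n = 4) and a log2 ratio of -4.23, so that the groups were far apart and no library stood between them. Glyma.03G253800, directly after a lower run, had 2.44, 2.31, 5.12 and 4.75 CPM in BR1 to BR4 and 0.328, 1.55, 0.703 and 0.273 CPM in R1 to R4 and a ratio of 1.78, with all BR libraries above all R libraries. Glyma.19G216000, directly after the higher run on chromosome 19, had 1.45 ± 0.324 CPM in BR and 3.59 ± 0.756 CPM in R and a ratio of -1.07. The others were Glyma.02G135400 and Glyma.18G123500 beside lower runs, with ratios of 1.07 and 1.57, and Glyma.13G229300 beside a higher run, with -1.12.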
